A study of Homo sapiens with 4 samples.

Results

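The MDM2, CDKN1A, GADD45A, GDF15, BTG2, ZMAT3, RRM2B, TP53I3 and FDXR genes, 9 transcriptional targets of p53 that are known for growth arrest, repair, redox control or feedback on p53, were followed in HGC-27 cells treated with the GLUP peptide. They were chosen by name and found by symbol after the Ensembl IDs of the table were mapped, and they make up 9 of its 62443 genes. All 9 had a value above 0 in every library. A mean of at least 1 FPKM (fragments scaled to transcript length and to the size of the library) over the 4 libraries was needed for the main test. TP53I3, GADD45A, GDF15 and CDKN1A, 4 of the 9, reached it, and the other 5 were read from a fit over all 28873 genes with a value above 0.

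p53 is a transcription factor that is held at a low level by the ubiquitin ligase MDM2 and its partner MDM4 and is stabilised when DNA damage or other stress signals reach it. It then switches on genes that stop the cell cycle (CDKN1A, BTG2, GADD45A), supply or repair DNA (RRM2B), act in redox metabolism (TP53I3, FDXR), bind RNA (ZMAT3) or are secreted (GDF15), and it switches on MDM2, which closes the loop. Several of the targets, GDF15 and GADD45A among them, also answer to stress pathways that do not need p53.

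HGC-27 is an established line of human gastric cancer cells, and it was the only line among these libraries. GLUP is a synthetic peptide that the study designed to bring the DNA-binding factor TEAD4 into repressive condensates. Control 1 and Control 2, whose label gives no treatment, received the buffer in which the peptide is kept according to the methods, and GLUP 1 and GLUP 2 received the peptide at 10 μg/ml. The methods give 48 h of treatment and the results text of the study gives 12 h for the same experiment, so the time is uncertain. The methods call the samples biological replicates, and the labels do not say whether they came from separate cultures.

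The summed FPKM was 909735 to 949919 per library, and read depth is unknown because the values are not whole multiples of the worth of 1 read. Control 2 stood apart from the other libraries. Over the 7588 genes tested it correlated with Pearson's r of 0.933 with Control 1 and 0.873 and 0.886 with the GLUP libraries, whereas GLUP 1 and GLUP 2 correlated at 0.986. Control 2 was the lowest of the 4 libraries for 2372 of these genes (31.3%) and the highest for 3088 (40.7%). Fold changes also followed the GC content of the transcripts. Spearman's rho across genes was 0.58 for GLUP against control, -0.42 for Control 2 against Control 1 and 0.02 for GLUP 2 against GLUP 1. Among 8 gastric epithelial markers, KRT8, KRT18 and KRT19 lay between 0.764 and 2.25 FPKM. EPCAM and CDH1 were at most 0.124 FPKM, and TFF1 was listed at 0 in all libraries. KRT8, KRT18 and KRT19 were higher in both GLUP libraries than in both controls, which held for 17.5% of the genes tested. EPCAM and CDH1 were lower in both, which held for 26.5% of genes above 0. MUC1, at 0.272 to 2.00 FPKM, overlapped between the groups, and CLDN18 was above 0 only in Control 2 (0.0630 FPKM). With the GC trend removed, none of the 4 tested markers had its groups apart. Of 4 mesenchymal markers, VIM was at 293 to 387 FPKM, FN1 at 0.655 to 3.25 FPKM and CDH2 at most 0.0508 FPKM. ZEB1 was at 7.05 and 19.2 FPKM in control and 2.88 and 2.92 FPKM in GLUP libraries. It had an unadjusted p of 0.0126 and an adjusted p of 0.104 in limma (log2 fold change of -1.71, and -0.95 after removal of the GC trend). Of 5 fibroblast markers, LUM and DCN were at 20.1 to 76.7 FPKM, COL1A1 at 2.97 to 6.90 FPKM, and COL1A2 and PDGFRB at most 0.443 FPKM, the 5 immune markers summed to at most 0.289 FPKM, and 2 of 3 endothelial markers were found in the table and summed to at most 0.0045 FPKM. The part of these markers in the results on the p53 targets was not tested. In bulk RNA, fewer cells of a type and less RNA per cell cannot be told apart.

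Promoter sequences are shown for the targets whose window held a p53 site by letters alone, because direct binding of p53 is what makes these genes targets. RefSeq promoters of GRCh38.p14, 300 bases each with 250 before and 50 after an annotated start, were found for 7 of the 9 genes in 12 windows, and none was found for GADD45A and RRM2B. The search used the p53 consensus, 10 bases read alike on both strands and repeated without a gap to 20 bases, with at most 3 mismatches and both C and G cores intact. Such a 20-base match was present in 392 of 35116 promoters (1.12%) and in 4 of the 12 windows, which are 2 overlapping windows of MDM2, 1 of FDXR and 1 of GDF15. The exact 10-base consensus was found in 2329 promoters (6.63%) and in 1 of the 12 windows, that of FDXR. In MDM2 the match had 2 mismatches and ended at -75 from an internal start on the plus strand, at chr12:68808883-68808982 for the stretch shown, and in FDXR it had 3 mismatches and ended at -2 on the minus strand, at chr17:74872995-74873055. Capitals mark the 20-base match in each.
MDM2 internal promoter: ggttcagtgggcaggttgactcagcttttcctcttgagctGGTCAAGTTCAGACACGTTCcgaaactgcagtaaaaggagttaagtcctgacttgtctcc
FDXR promoter: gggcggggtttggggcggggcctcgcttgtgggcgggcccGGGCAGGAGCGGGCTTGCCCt
The match in GDF15 lay after its start and is not shown. A match of letters is a description of these windows, and binding of p53 was not measured in these libraries.

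No p53 target passed the test in GLUP-treated cells, and the differences from control did not share a direction. Among the 4 tested genes 3 had a log2 fold change above 0 and 1 below, and among the other 5 BTG2 was above 0 while MDM2, FDXR, RRM2B and ZMAT3 were below. None of the 4 tested genes reached an adjusted p under 0.05 with a fold change over 2 in limma, where 2 of 7588 genes did (0.0264%), and none reached the weaker rule of an unadjusted p under 0.05 with the same fold, where 1457 did (19.2%). In the fit over all genes above 0, none of the other 5 passed either rule, where 0 of 28873 genes passed the adjusted rule (0%) and 1293 the unadjusted one (4.48%). Only limma was used. GDF15 was higher in both GLUP libraries than in both control libraries, which held for 1330 of the genes tested (17.5%), and GADD45A was lower in both, which held for 3770 (49.7%). The median log2 fold change of the 4 was 0.40 beside -0.36 for all genes tested, all on the log2(FPKM + 1) scale, which understates the change of low genes. The median of the 4 was -0.04 after the GC trend was removed and 0.74 with median centring of the libraries. In these settings the median of all genes tested was 0.0008 and -0.01. Without Control 2 the median of the 4 was -0.03, but without Control 1 it was 0.81.

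**Figure D1:**
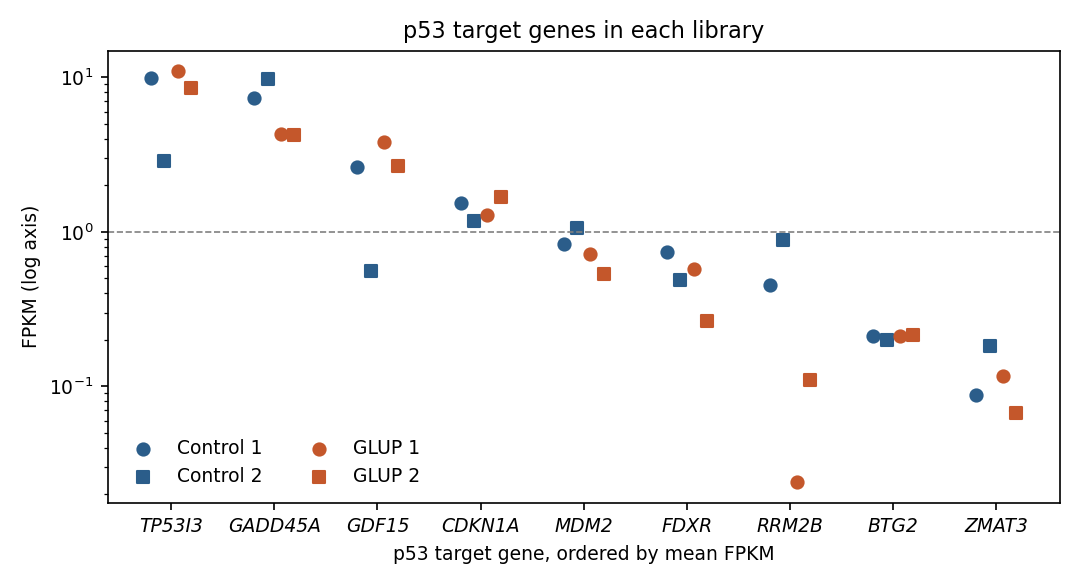
FPKM (log axis) of the 9 p53 targets in each library, ordered by mean, with blue points for control and orange points for GLUP libraries, circles for replicate 1, squares for replicate 2 and a dashed line at 1 FPKM. Control 2 is the lowest of the 4 points for TP53I3, GDF15, CDKN1A and BTG2, both GLUP points of GADD45A lie below both control points, and RRM2B has the widest spread of the 9, from 0.0240 to 0.886 FPKM.

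GADD45A encodes a small stress protein that binds PCNA and cyclin-dependent kinase complexes, and its gene lies at chr1:68150884-68154017 on the plus strand of GRCh37. It was measured at 7.33 FPKM in Control 1, 9.74 in Control 2, 4.32 in GLUP 1 and 4.22 in GLUP 2. Both GLUP libraries were close to each other and below both controls. The mean was 8.53 ± 1.71 FPKM in control and 4.27 ± 0.07 FPKM in GLUP cells (SD, n = 2 each), a ratio of 0.500, and the log2 fold change was -0.84 with a standard error of 0.30. Its unadjusted p was 0.0312 and its adjusted p in limma 0.130, so the difference did not pass, and 2409 of the genes tested (31.7%) had an unadjusted p under 0.05 at any fold. It was -1.03 without Control 1, where it passed with an adjusted p of 0.0143 in limma, and -0.66 without Control 2, -0.74 after removal of the GC trend and -0.49 once the median over the 7588 genes was subtracted. Its relative GADD45B was at 2.47 and 1.12 FPKM in control and 0.950 and 1.08 FPKM in GLUP libraries, with GLUP 2 just below Control 2, a log2 fold change of -0.43 and an adjusted p of 0.351 in limma. GADD45G, the third of the family, was listed at 0 in 3 libraries and at 0.0621 FPKM in GLUP 1.

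GDF15, a secreted cytokine of the TGF-β superfamily, lies at chr19:18485541-18499986 on the plus strand. Its values were 2.62 FPKM in Control 1, 0.560 in Control 2, 3.80 in GLUP 1 and 2.65 in GLUP 2. The groups did not overlap, but Control 1 and GLUP 2 were almost equal and Control 2 was far below the other libraries. The log2 fold change was 0.82 with a standard error of 0.45 and an adjusted p of 0.248 in limma. It was 1.42 without Control 1 (adjusted p of 0.0102) and 0.21 without Control 2. Leaving out a control assumes that the lone control library varies like the GLUP libraries, and 2710 of 7588 genes (35.7%) passed the adjusted rule in limma without Control 1, compared with 1020 (13.4%) without Control 2. The transcript has 64.1% GC, above 97.7% of the genes tested. The log2 fold change was 0.24 after the GC trend was removed among the 7588 genes tested, where the groups of GDF15 overlapped. It was 0.74 when the trend was removed over all genes above 0.

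TP53I3 showed the same order of the controls. The gene, which encodes a quinone oxidoreductase-like enzyme and lies at chr2:24300303-24308731 on the minus strand, was measured at 9.88 FPKM in Control 1, 2.88 in Control 2, 10.9 in GLUP 1 and 8.47 in GLUP 2. The groups overlapped, with Control 1 between the GLUP libraries. The log2 fold change of 0.71 had a standard error of 0.53 and an adjusted p of 0.366 in limma, and it was 1.46 without Control 1 (adjusted p of 0.00813), -0.03 without Control 2, and 0.25 or 0.65 after the GC trend was removed among genes tested or over all genes above 0. The part of GC content and of Control 2 in the values of GDF15 and TP53I3 was not tested. FAM228B overlaps TP53I3 on the opposite strand and reached at most 0.291 FPKM.

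CDKN1A encodes p21, the inhibitor of cyclin-dependent kinases through which p53 stops cells in G1, and lies at chr6:36644237-36655114 on the plus strand. Its values were 1.53 FPKM in Control 1, 1.17 in Control 2, 1.29 in GLUP 1 and 1.68 in GLUP 2. The groups interleaved. The mean was 1.35 ± 0.25 FPKM in control and 1.49 ± 0.28 FPKM in GLUP cells (SD, n = 2 each), and the log2 fold change of 0.08 with a standard error of 0.25 (adjusted p of 0.829 in limma) was smaller than its error. The sign turned when the GC trend was removed among genes tested (-0.32, but 0.03 over all genes above 0). It also turned without Control 2 or GLUP 2 (-0.03 each). After the removal among genes tested both GLUP libraries lay below both controls, which held for 28% of those genes. With median centring (0.43) both lay above both controls, which held for 32.7%. The other CDK inhibitors of its family were lower still. CDKN1B (p27) was at 0.475 and 0.488 FPKM in control and 0.169 and 0.180 FPKM in GLUP libraries. Both of its GLUP values lay below both controls, which held for 26.5% of genes above 0, and its log2 fold change was -0.33. CDKN1C (p57) spread from 0 to 0.256 FPKM. The adjusted p of CDKN1B in limma over all genes above 0 was 0.432.

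**Figure D2:**
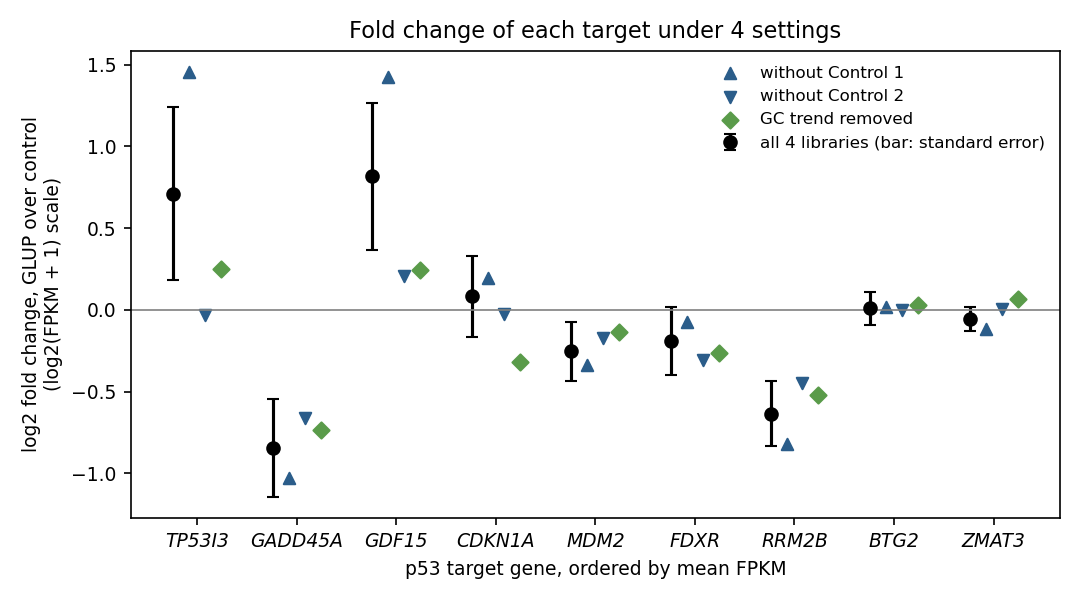
Log2 fold change of GLUP over control on the log2(FPKM + 1) scale for the 9 p53 targets (all 4 libraries as black circles with the standard error, without Control 1 as upward and without Control 2 as downward triangles, GC trend removed as diamonds), with genes under 1 FPKM taken from the fit over all genes above 0. GADD45A, RRM2B, MDM2 and FDXR stay below 0 in all 4 settings, whereas TP53I3 moves from 1.46 to -0.03 and GDF15 from 1.42 to 0.21 depending on which control is left out.

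The feedback arm of the pathway was low on the side of MDM2. MDM2, at chr12:69201957-69239324 on the plus strand, had 0.832 FPKM in Control 1, 1.05 in Control 2, 0.721 in GLUP 1 and 0.534 in GLUP 2. Both GLUP libraries lay below both controls, which held for 7650 of 28873 genes above 0 (26.5%). The means were 0.942 ± 0.155 and 0.627 ± 0.132 FPKM (SD, n = 2 each), a ratio of 0.666, and the log2 fold change of -0.25 had a standard error of 0.18 and an adjusted p of 0.575 in limma. MDM4, the non-catalytic partner of MDM2, was more abundant per length in every library, with 6.04 and 10.4 FPKM in control and 2.70 and 4.14 FPKM in GLUP libraries. It passed the unadjusted rule in the lower direction, with a log2 fold change of -1.04, an unadjusted p of 0.0319 and an adjusted p of 0.131 in limma, and it was -0.41 after removal of the GC trend and not called when the libraries were centred on their medians. The level of MDM4 over that of MDM2 was 7.26 and 9.88 in control and 3.75 and 7.75 in GLUP libraries, so this ratio overlapped between the groups. Genes that overlap MDM2, among them CPM on the opposite strand, were at most 0.168 FPKM, and whether reads were assigned by strand is not given in the sources used here.

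RRM2B gave the largest ratio of group means among the 9. It encodes the p53-inducible small subunit of ribonucleotide reductase, the enzyme that makes deoxynucleotides, and lies at chr8:103216730-103251189 on the minus strand. The gene was measured at 0.454 FPKM in Control 1, 0.886 in Control 2, 0.0240 in GLUP 1 and 0.111 in GLUP 2. Both GLUP values were below both control values, and the replicates of each group were far apart. The mean of the controls was 9.96 times that of the GLUP libraries, a log2 ratio of -3.32 without a pseudocount, whereas the fitted log2 fold change on the log2(FPKM + 1) scale was -0.64 with a standard error of 0.20 and -2.19 with a pseudocount of 0.1. Its unadjusted p was 0.0310 and its adjusted p in limma 0.347, so the difference did not pass, and 3744 of the genes above 0 (13%) had an unadjusted p under 0.05 at any fold. At these levels the number of reads behind a value is unknown. The transcript has 35.1% GC, a content below which only 2.43% of the genes tested lie, and the log2 fold change was -0.52 after the GC trend was removed in the fit over all genes above 0.

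The other subunits of ribonucleotide reductase were more abundant. RRM2, the S-phase small subunit, was at 27.8 and 20.1 FPKM in control and 26.9 and 21.8 FPKM in GLUP libraries, a log2 fold change of 0.03. RRM1, the large subunit, was at 9.93 and 9.23 FPKM in control and 6.30 and 5.43 FPKM in GLUP libraries, a log2 fold change of -0.63 with an adjusted p of 0.194 in limma and of -0.05 after removal of the GC trend. RRM2 exceeded RRM2B by 61.2 and 22.6 times in control and by 1124 and 197 times in GLUP libraries, so the groups were apart in this ratio, which has RRM2B near 0 below the line.

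BTG2, FDXR and ZMAT3 were low in all libraries. BTG2, an antiproliferative protein of the BTG/TOB family at chr1:203274619-203278730 on the plus strand, was measured at 0.212 and 0.200 FPKM in control and 0.213 and 0.214 FPKM in GLUP libraries, the smallest spread of the 9 genes. Both GLUP values were above both controls by a margin smaller than the gap between the controls, a position that 3813 of 28873 genes held (13.2%), and the log2 fold change was 0.01 with an adjusted p of 0.974 in limma. Within its family, BTG3 was at 16.4 and 11.4 FPKM in control and 7.91 and 6.53 FPKM in GLUP libraries (log2 fold change of -0.84, unadjusted p of 0.0459, adjusted p of 0.152 in limma). It was -0.25 after removal of the GC trend. TOB1 ranged from 5.68 to 17.0 FPKM with both extremes in the controls, and BTG1 was at 0.345 and 0.578 FPKM in control and 0.152 and 0.258 FPKM in GLUP libraries.

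FDXR, the mitochondrial reductase that passes electrons to ferredoxin, lies at chr17:72858619-72869156 on the minus strand and carries the promoter match shown above. It was at 0.745 and 0.487 FPKM in control and 0.576 and 0.264 FPKM in GLUP libraries. The groups overlapped, with a log2 fold change of -0.19, a standard error of 0.21 and an adjusted p of 0.640 in limma. Of the ferredoxins that it serves, FDX2 was at 27.9 and 11.9 FPKM in control and 13.5 and 13.6 FPKM in GLUP libraries, with a gene overlapping it on the same strand at 1.98 to 5.05 FPKM, and FDX1 was at 0.279 and 0.767 FPKM in control and 0.219 and 0.212 FPKM in GLUP libraries. Neither ferredoxin passed the test.

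ZMAT3, a zinc finger protein that binds RNA, at chr3:178677909-178790003 on the minus strand, was the lowest of the 9. It was measured at 0.0884 and 0.183 FPKM in control and 0.117 and 0.0672 FPKM in GLUP libraries, so the groups overlapped, and the log2 fold change of -0.06 (adjusted p of 0.696 in limma) turned to 0.07 when the GC trend was removed. Its relative ZMAT2 was steady at 8.59 to 9.20 FPKM over the 4 libraries and ZMAT1 was at 0.0587 FPKM in Control 2 and listed at 0 in the others.

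By mean FPKM, a level per length, the order was TP53I3 (8.04), GADD45A (6.40), GDF15 (2.41), CDKN1A (1.42), MDM2 (0.784), FDXR (0.518), RRM2B (0.369), BTG2 (0.210) and ZMAT3 (0.114). Of the 8 neighbouring pairs in this order, GADD45A over GDF15, CDKN1A over MDM2 and BTG2 over ZMAT3 had ranges over the 4 libraries that did not overlap, and the other 5 pairs overlapped. The highest of the 9, TP53I3, stood above 91.2% and the lowest, ZMAT3, above 46.2% of the genes with a value above 0.

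GC content moved with these fold changes. When the genes tested were put in 10 bins of 757 by GC content, the lowest bin had a median log2 fold change of -0.82 and the highest one of 0.52. The targets with a fold change above 0.5, GDF15 and TP53I3, have 64.1% and 59.4% GC, while MDM2, ZMAT3 and RRM2B have 39.5%, 38.2% and 35.1%. FDXR, with 61.8% GC, was under 1 FPKM and so in none of the bins. Its log2 fold change was -0.19 in the fit over all genes above 0, and -0.26 after the GC trend was removed there. The median of 0.52 in the bin that spans its GC content holds for genes tested only. GADD45A, with 50.7% GC, lay well below the median of its bin (-0.10), and CDKN1A, with 58.1% GC, lay below the median of its bin (0.34).

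**Figure D3:**
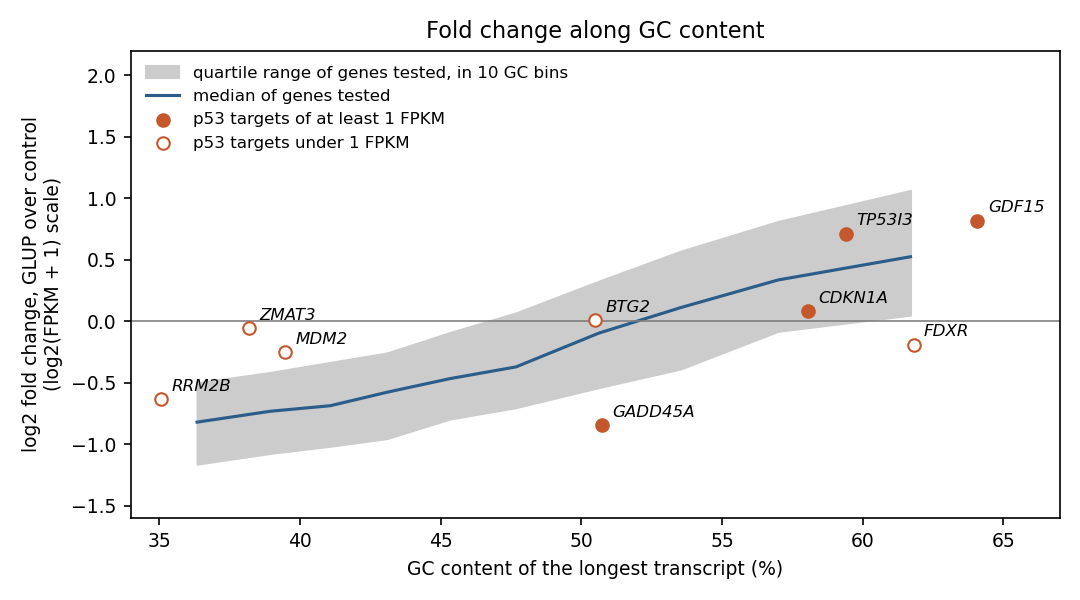
Log2 fold change of GLUP over control (log2(FPKM + 1) scale) against the GC content of the longest transcript in percent, with the median of genes tested in 10 bins of GC content as a line, the range between their quartiles as a grey band, tested p53 targets as filled circles and targets under 1 FPKM, whose fold changes the pseudocount shrinks, as open circles. The line climbs from -0.82 to 0.52, and GADD45A at -0.84 lies below the band.

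The wider pathway was read from 7 lists with 94 genes in all, of which 58 were tested. Of these, 8 passed the unadjusted rule (13.8%), 3 in the higher and 5 in the lower direction, compared with 4.67% higher and 14.5% lower among all genes tested, and none passed the adjusted rule. Each library was also centred on its median or brought to equal quantiles, since the median of all genes tested was below 0. Among the p53 circuit (sensors, ligases, cofactors and relatives of p53) 7 of 16 genes were tested, all 7 had a log2 fold change below 0 as deposited, 5 with either scaling and 4 after removal of the GC trend, and 5 lay lower in both GLUP libraries. Their median was -0.75 (-0.41 after removal of the GC trend) beside -0.36 for all genes tested. Over all genes tested, 5061 of 7588 had a log2 fold change below 0 and 49.7% lay lower in both GLUP libraries. The 2 calls in the circuit, MDM4 and CHEK2, were not made with either scaling. With the GC trend removed CHEK2 was still called (-1.04) and CDKN2A was called too (-1.67), which was named after its value was seen. CDKN2A was at 24.2 FPKM in Control 1, 3.21 in Control 2, 2.53 in GLUP 1 and 4.26 in GLUP 2, so that Control 1 alone was high. Its groups overlapped as deposited (log2 fold change of -1.26, adjusted p of 0.312 in limma). CHEK2, a checkpoint kinase, passed the unadjusted rule with 14.6 and 12.7 FPKM in control and 4.73 and 5.88 FPKM in GLUP libraries (log2 fold change of -1.22, unadjusted p of 0.00731, adjusted p of 0.10 in limma). HSCB overlaps it on the opposite strand at 3.68 to 8.70 FPKM.

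Other arrest and repair targets of p53 showed no call. Of 18 genes 8 were tested, 1 lay higher and 4 lower in both GLUP libraries (17.5% and 49.7% of all genes tested), and the median was -0.43 (-0.09 with median centring, 0.09 after removal of the GC trend). The most abundant, RPS27L, a ribosomal protein relative induced by p53, was at 44.6 and 44.8 FPKM in control and 19.9 and 44.8 FPKM in GLUP libraries, so that GLUP 1 alone was low. Among 11 apoptotic targets 5 were tested with a median of 0.17 and no call, and the most abundant, PMAIP1 (NOXA), was at 11.3 and 3.16 FPKM in control and 7.52 and 7.36 FPKM in GLUP libraries. Of the 5 tested, BAX, the pore-forming effector, was the 1 higher in both GLUP libraries, at 1.29 and 0.441 FPKM in control and 2.40 and 2.62 FPKM in GLUP libraries (log2 fold change of 0.95, adjusted p of 0.116 in limma), and FAS, the death receptor, was the 1 lower in both (-0.86). BAX was called higher with median centring and with quantile normalization, as were 10.5% and 8.87% of all genes tested. After removal of the GC trend BAX was at 0.51 and not called, and FAS was at -0.12. The median of the list was 0.51 both with centring and after removal of the GC trend, beside -0.01 and 0.0008 for all genes tested. BAX and FAS were picked after their values were seen. The 13 relatives and partners described above had 7 genes tested, no call and a median of -0.41.

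Genes that act downstream of p21 differed in both directions. The G1 machinery, with 9 of 14 genes tested, had no call as deposited, 3 genes higher and 3 lower in both GLUP libraries (17.5% and 49.7% of all genes tested) and a median of 0.29. With median centring and with quantile normalization CDK4 and E2F4, named after their values were seen, were called higher (10.5% and 8.87% of all genes tested). Neither was called after removal of the GC trend (CDK4 1.15, E2F4 0.51). PCNA, its most abundant gene and the binding partner of both p21 and GADD45A, was at 74.3 and 64.6 FPKM in control and 59.1 and 62.2 FPKM in GLUP libraries. Of 12 genes that the DREAM complex represses when p21 is induced, all were tested and 4 passed the unadjusted rule (19.2% of all genes tested). Those were BUB1 (log2 fold change of -1.35) and CDK1 (-1.19), which act in mitosis, in the lower direction, and PLK1 (1.94), a mitotic kinase, and MYBL2 (1.27), a cell cycle transcription factor, in the higher direction. CDK1 was at 41.6 and 37.5 FPKM in control and 18.4 and 15.1 FPKM in GLUP libraries, and PLK1 at 5.04 and 0.357 FPKM in control and 11.4 and 8.81 FPKM in GLUP libraries, with Control 2 far below the rest. CDK1 has 37.0% and PLK1 57.1% GC. After removal of the GC trend PLK1 was at 1.59 and still called, while CDK1 (-0.38), BUB1 (-0.71) and MYBL2 (0.78) were not. The most abundant gene of the list, CCNB1, was at 286 and 164 FPKM in control and 131 and 141 FPKM in GLUP libraries, with a log2 fold change of -0.67 and -0.02 after removal of the GC trend. The median of the list was -0.48 (-0.05 after removal of the GC trend). With median centring 4 genes of the list were called higher and 1 lower (10.5% and 5.64% of all genes tested), and after removal of the GC trend 1 higher (PLK1) and none lower.

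**Figure D4:**
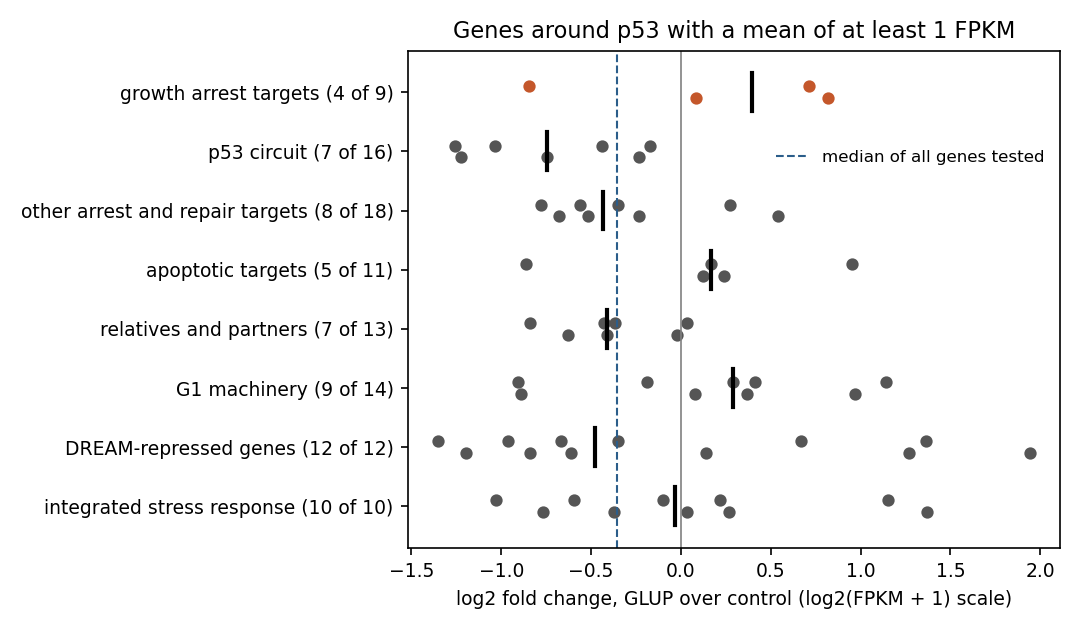
Log2 fold change of GLUP over control (log2(FPKM + 1) scale) for tested genes of the 9 growth arrest targets (orange) and of 7 lists around p53 (grey), with the number tested of the number listed, a black bar at each median and a dashed line at the median of all genes tested (-0.36). All 7 genes of the p53 circuit lie below 0 as deposited (5 when libraries are centred), and the DREAM-repressed genes spread from -1.35 to 1.94.

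The genes whose profile over the 4 libraries was most like that of CDKN1A were POLR2G, HNRNPA1L2 and TMEM38A, at Euclidean distances of 0.074, 0.076 and 0.078 between centred log2(FPKM + 1) values. For MDM2 they were NFATC2IP, LINC02298 and NUMB, at 0.034, 0.045 and 0.046. With 4 libraries such likeness is common, since 224 tested genes lay within 0.25 of CDKN1A and 342 within 0.25 of MDM2.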

How the data were processed

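RNA-seq libraries of HGC-27 cells, 2 control and 2 treated with GLUP, were used. The authors deposited FPKM values per gene, and the submitters' processing notes name HISAT2, Cufflinks and RSEM and the build GRCh38.p10, without versions. Of the IDs, 53057 carry the suffix of annotation lifted to GRCh37, so the build is uncertain. Rows of 49 second pseudoautosomal copies were summed with the first, which left 62443 genes. Names, GRCh37 positions, transcript length and GC content came from GENCODE lifted to GRCh37, in which 99.5% of the IDs were found without their version.

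Values were analysed as deposited, as log2(FPKM + 1). For the main test, genes had to average at least 1 FPKM, and the 7588 that did were fitted by limma 3.58.1 under R 4.3.3, moderated along a mean-variance trend, with Benjamini-Hochberg adjustment. Members under that minimum were read from the same fit over 28873 genes above 0. The exact permutation test of 2 against 2 libraries cannot go below p = 0.333 and was not used. The GC trend was removed by lowess (span 0.3). The fit was tested on simulated data, which were independent normal values with the same spread in every library. These data held neither a GC trend nor a library that stood apart, so they cannot show how the fit behaves with either. The members and gene lists were chosen with earlier results of these data known.

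Genes named are the members, MDM4, relatives and partners, and from the other lists those that pass the unadjusted rule (p under 0.05, over 2-fold, at most 4 by p) with the most abundant gene, the 3 nearest profiles to CDKN1A and MDM2, and genes that overlap a member. Exceptions are marked, and 1 gene that the rule names is not reported here. The alternatives were other pseudocounts, filters, scalings, a fit without the trend, the replicate block, GC correction, libraries left out and ratios of mean FPKM. For members under 1 FPKM, the pseudocount, GC, block and left-out fits over all genes above 0 were added after the data were seen. Column totals of FPKM do not give read depth, so no counting interval is given.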

Additional observations from a re-analysis of the deposited data

How the results depend on the processing

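Under the adjusted rule 2 genes passed in limma. The number was 1 with a pseudocount of 0.1, with median centring and with quantile normalization, 0 over all genes above 0, at a mean of at least 5 FPKM, without the mean-variance trend and with the GC trend removed, and 4 to 2710 with 1 library left out (2710 without Control 1, 1020 without Control 2). The 1457 genes of the unadjusted rule became 890 at a mean of at least 5 FPKM, 702 with the GC trend removed and 587 to 2729 with 1 library left out. Median centring gave 796 higher and 428 lower genes and quantile normalization 673 and 486, against 354 and 1103 as deposited. No p53 target passed either rule, except that median centring and quantile normalization each gave 1 (GDF15) by unadjusted p, and leaving out 1 library gave 0 to 3 by either rule, the 3 (TP53I3, GADD45A and GDF15) without Control 1. The targets with groups apart were 2 of 4 tested as deposited (17.5% higher and 49.7% lower over all genes tested). They were 5 of all 9 in the fit over genes above 0 (13.2% and 26.5%) and 1 at a mean of at least 5 FPKM. They were 4 with median centring (32.7% and 29.8%) or quantile normalization (29.3% and 34%). With 1 library left out they were 2 to 4, and without Control 1 the shares over genes tested were 33.8% and 57.5%. With the GC trend removed 2 targets, GADD45A and CDKN1A, were apart (28.3% and 28%), both lower in GLUP libraries, and GDF15 was not among them. The 8 genes called in the lists became 14 with a pseudocount of 0.1, 3 with the GC trend removed and 2 to 18 with 1 library left out (18 without Control 1, 2 without GLUP 1, 3 without GLUP 2).

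The log2 fold change of CDKN1A turned from 0.08 to -0.32 with the GC trend removed, and ranged from -0.031 to 0.20 with 1 library left out, that of TP53I3, 0.71, ranged from -0.034 to 1.46, and that of ZMAT3, -0.06, ranged from -0.12 to 0.0042 and was 0.066 with the GC trend removed in the fit over all genes above 0. The sign of CDKN1A turned without Control 2 or GLUP 2, and those of TP53I3 and ZMAT3 without Control 2. Of 94 recomputed fold changes of targets, 79 kept direction and call, 7 changed sign, 3 passed the adjusted p without Control 1 and 5 moved by more than the spread between replicates as ratios of mean FPKM. The cause was not tested.

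Replicate numbers mark no shared batch in the labels, and the differences between replicates correlated at 0.126 between the groups. With the replicate block 2 genes passed the adjusted rule and 1688 the unadjusted one, and the lists gave 11 calls. The replicate block with the GC trend removed gave 16 and 837 genes, 5 calls in the lists and -0.32 for CDKN1A. No call of a p53 target changed under the replicate block. Unknown depth limits all values under 1 FPKM.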

Other observations

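The integrated stress response, in which the transcription factor ATF4 raises genes of amino acid supply and stress signalling, shares GDF15 and GADD45A with p53 as targets. All 10 genes of its list were tested, and 1 passed the unadjusted rule in limma in each direction (4.67% higher and 14.5% lower among all genes tested). DDIT3 (CHOP), the most abundant, was at 159 and 160 FPKM in control and 84.0 and 72.0 FPKM in GLUP libraries, with a log2 fold change of -1.03, an unadjusted p of 0.0185 and an adjusted p of 0.112. MARS1 overlaps it on the opposite strand at 6.16 to 12.5 FPKM. CHAC1, a glutathione-degrading enzyme, was at 3.69 and 1.31 FPKM in control and 7.79 and 5.07 FPKM in GLUP libraries, with a log2 fold change of 1.15, an unadjusted p of 0.0381 and an adjusted p of 0.140. ATF4 itself was at 49.8 and 39.7 FPKM in control and 44.2 and 38.9 FPKM in GLUP libraries. The median of the list was -0.03 beside -0.36 for all genes tested, and 0.31 with median centring, where 2 genes (CHAC1 and DDIT4, the latter named after its value was seen) were called higher and none lower. With the GC trend removed no gene of the list was called (DDIT3 -0.85, CHAC1 0.64).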
